A study of Mus musculus with 12 samples.

Results

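The levels of 9 genes of B-1 and memory-like B cells were followed across resting and stimulated mouse splenic B cells with and without a targeted deletion of Sub1. The genes were Bhlhe40, Bhlhe41, Cd5, Spn, Ctla4, Arid3a, Zbtb20, Zbtb32 and Fcrl5. They were listed as genes of B-1 and innate-like B cells. The rule itself uses no measured value, but the members were chosen with earlier results of these data known. All array probes whose transcript accession belonged to one of the 9 genes were taken, which gave 13 of 55681 non-control probes. The 9 genes were among 20018 genes that could be named on the array. All 9 passed the filter on dim probes and were tested among 22981 features.

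Splenic B cells were studied in 4 groups of 3 replicates. Control cells had the genotype B1-8hi:Sub1fl/fl, with both Sub1 alleles floxed and no Cre. Knockout cells had the genotype B1-8hi:Sub1fl/fl-Mb1-Cre, in which the same alleles were combined with Cre inserted in Cd79a and active from early B cell development. B1-8hi, present in all groups, is an immunoglobulin heavy chain knocked into the germline that favours binding of the hapten NP. Sub1 encodes PC4, a coactivator and chromatin protein. Because the controls lack Cre, loss of Sub1, Cre itself and disruption of a Cd79a allele differ together between the genotypes and cannot be told apart. Resting cells had received no differentiation stimulus. Stimulated cells had been cultured for 72 h with IL-2 at 100 U/mL, IL-4 at 5 ng/mL, IL-5 at 1.5 ng/mL, CD40 ligand at 0.2 ng/mL and the antigen NP-ficoll at 0.01 ng/mL. The labels gave no age or sex. They did not state that replicates were separate animals, so every p-value here refers to the spread among these samples alone. Part of that spread could be technical, and in the knockout groups all of it. In the control groups replicate 1 differed from the others in sex-linked genes, as given below.

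B-1 cells are self-renewing B cells that respond without T cell help and supply natural antibody. They are marked by the surface molecules CD5 and CD43 (the product of Spn) and carry transcriptional regulators that most follicular B cells hold at low levels, among them Arid3a and the paired repressors Bhlhe40 and Bhlhe41. Zbtb32, a repressor of the BTB zinc finger family, limits the recall response of memory B cells, and its relative Zbtb20 sustains long-lived plasma cells. CTLA-4 and FCRL5 are inhibitory receptors: the first competes for CD80 and CD86, and the second is abundant on marginal zone and B-1 cells.

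The 250 bases before the annotated transcript start are shown for the 4 members with the widest change of their brightest probe on stimulation of control cells among those with an entry, so that the letters can be read beside the values that follow. The sequences are RefSeq's, on the mouse build GRCm38.p6, and 7 of the 9 genes had an entry, those without one being Bhlhe40 and Arid3a. The motifs searched on both strands were the E-box CACGTG, the IRF repeat (GAAA, 2 bases of any kind, GAAA), the Ets-IRF element (GGAA, 2 bases of any kind, GAAA), the Ikaros core TGGGAA, the octamer ATTTGCAT and the AP-1 site TGANTCA. The IRF repeat and the Ets-IRF element can overlap. Capitals mark a match, and each window is written 5′ to 3′ on the strand of its gene. The windows are Bhlhe41 at chr6:145865421-145865670 (minus strand), Spn at chr7:127137824-127138073 (minus strand), Zbtb20 at chr16:43247034-43247283 (plus strand) and Zbtb32 at chr7:30598910-30599159 (minus strand). The Spn, Zbtb20 and Zbtb32 windows lie inside the span of the annotated gene, before a start that is not its outermost one.
Bhlhe41: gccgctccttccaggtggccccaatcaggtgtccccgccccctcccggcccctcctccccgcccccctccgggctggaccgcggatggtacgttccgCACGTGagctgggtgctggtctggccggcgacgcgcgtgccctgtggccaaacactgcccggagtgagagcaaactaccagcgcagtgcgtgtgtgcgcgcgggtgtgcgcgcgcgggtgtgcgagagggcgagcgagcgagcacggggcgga
Spn: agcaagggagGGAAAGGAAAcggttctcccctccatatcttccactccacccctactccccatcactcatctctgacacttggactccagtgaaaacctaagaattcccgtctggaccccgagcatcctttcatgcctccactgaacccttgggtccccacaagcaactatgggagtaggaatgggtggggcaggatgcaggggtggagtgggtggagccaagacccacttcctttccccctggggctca
Zbtb20: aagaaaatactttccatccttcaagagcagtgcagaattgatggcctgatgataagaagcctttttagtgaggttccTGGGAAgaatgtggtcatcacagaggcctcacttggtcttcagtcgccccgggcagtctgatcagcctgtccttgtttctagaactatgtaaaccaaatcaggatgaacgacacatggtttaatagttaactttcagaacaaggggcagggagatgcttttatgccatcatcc
Zbtb32: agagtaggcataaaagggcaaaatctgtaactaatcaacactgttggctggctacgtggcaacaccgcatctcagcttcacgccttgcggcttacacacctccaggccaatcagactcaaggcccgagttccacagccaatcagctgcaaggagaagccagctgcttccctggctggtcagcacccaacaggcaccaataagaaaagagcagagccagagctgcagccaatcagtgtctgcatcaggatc
A CACGTG E-box began 153 bases before the start of Bhlhe41, and 6.02% of 32851 promoter windows of the same length held one. An Ets-IRF element lay 240 bases before the start of Spn, a match held by 2.3% of windows. An Ikaros core lay 173 bases before the start of Zbtb20 and, on the opposite strand, 215 bases before that of Cd5, at a background of 21.6%. Fcrl5 had an AP-1 site 11 bases before its start (6.75% of windows). The windows of Ctla4 and both windows of Zbtb32 held none of the 6 motifs. A match describes these letters and is not a measured binding site.

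The arrays differed in the share of spots well above background, from 24.3% in stimulated control replicate 2 to 76.8% in stimulated knockout replicate 3. No spot was saturated. Levels are the log2 of each probe's intensity relative to the 75th percentile of its array, so a negative level is dimmer than that percentile and levels of different probes cannot be set against each other. Replicates 1 and 2 of every group lay on slide 1 and replicate 3 on slide 2. The targeted gene Sub1 was lower by 0.38 (log2) in resting knockout cells (limma, SE 0.19, adjusted p = 0.268) and fell by 1.21 in stimulated ones (SE 0.19, adjusted p = 0.0114). The labels do not say which exons were floxed, so a probe outside them would check nothing. Cd79a gave -1.54 (adjusted p = 0.0948) and -1.10 (adjusted p = 0.0343). Both arrays of control replicate 1, and no others, were above background for the Y-linked genes Ddx3y and Eif2s3y and not for Xist, so the members' results are also given without them where a call depends on it. The Y-linked genes Uty and Kdm5d did not follow this pattern. A Uty probe was above background on every resting knockout array, and Kdm5d only on stimulated knockout replicate 1. An Xist probe was also not above background on stimulated control replicate 2. Of the 12 follicular and general B cell genes, 10 (among them Ms4a1 and Cd79b) were well above background on all 12 arrays, as the B cell label implies.

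**Figure D1:**
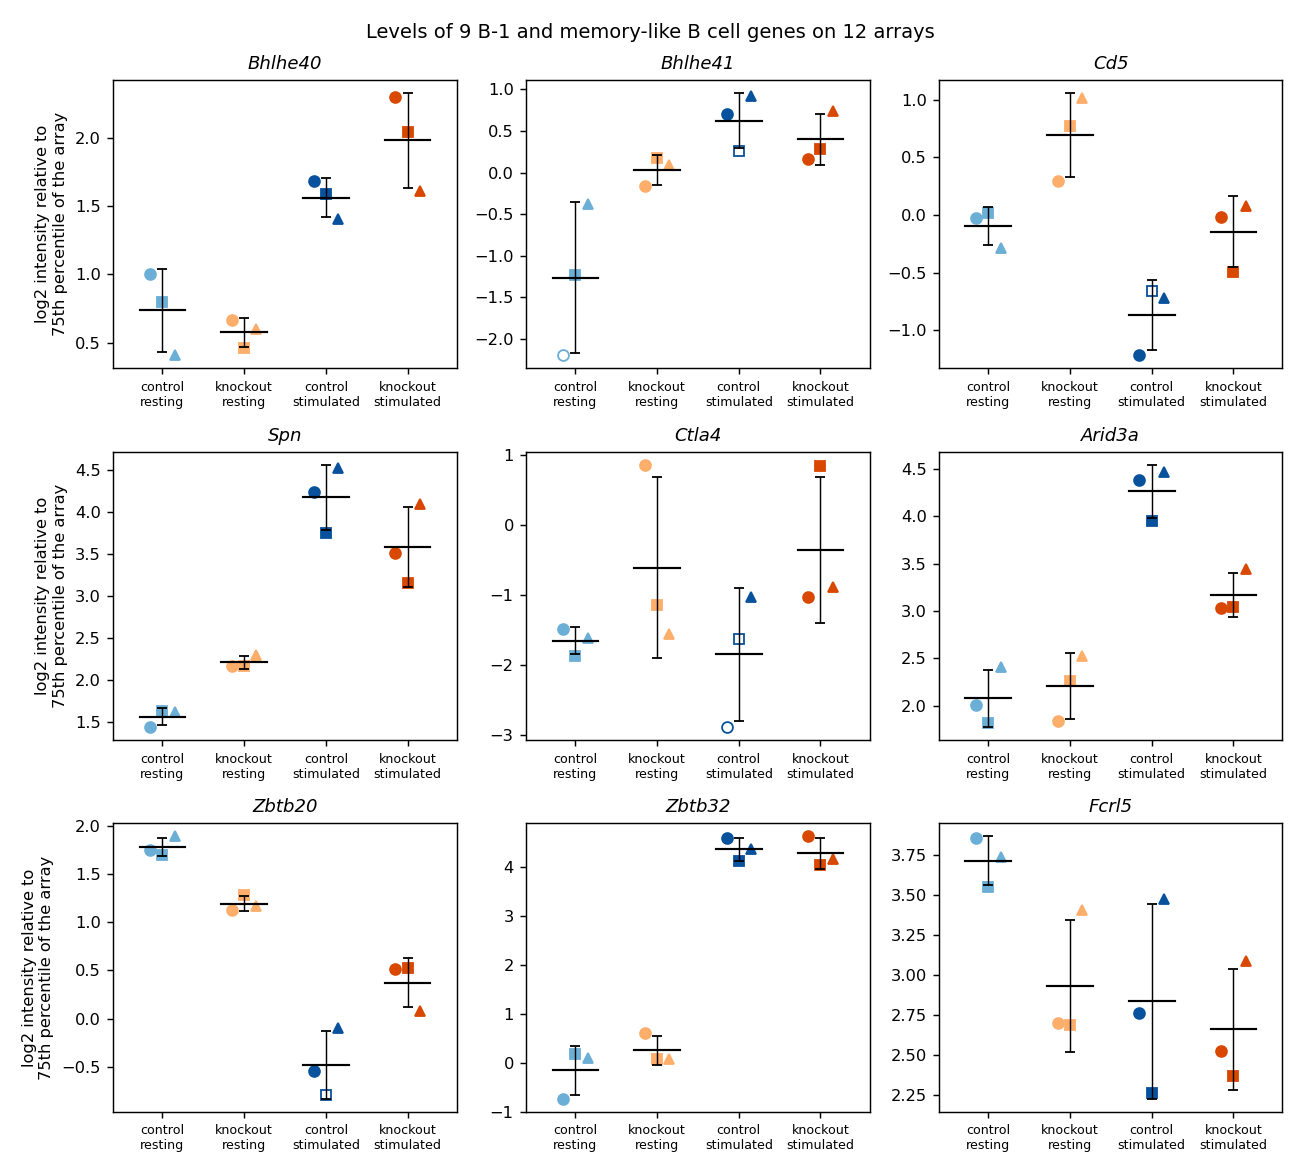
Levels of the 9 genes (log2 intensity relative to the 75th percentile of the array) in the 4 groups of 3 arrays. Circles, squares and triangles are replicates 1, 2 and 3, open symbols are not well above background, lines are means and bars are SDs. Zbtb32 separates stimulated from resting cells by more than 3 log2 units on every array, and Arid3a is lower on the 3 stimulated knockout arrays than on the 3 stimulated control arrays.

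The first comparison asked how these genes answer the differentiation culture. In control cells Zbtb32, Spn, Arid3a, Bhlhe41 and Bhlhe40 rose and Zbtb20 and Cd5 fell. In knockout cells Zbtb32, Bhlhe40, Spn and Arid3a rose and Zbtb20 and Cd5 fell. The 2 genotypes thus each had rising repressors and CD43 beside falling Zbtb20 and Cd5. Of the 9 genes, 7 were called in control cells (5 higher, 2 lower), where 27.8% of all features were called (14.7% higher and 13.1% lower), and 6 in knockout cells (4 higher, 2 lower), where 16.1% were called (10.9% higher and 5.2% lower). The arrays of the groups did not overlap for 8 genes in control and 6 in knockout cells, against 39.9% and 34% of all features. The median change of the 9 genes was 0.82 in control and 0.37 in knockout cells, and that of all features was 0.04 and 0.10. The 2 comparisons share no arrays. Plasma cell genes rose beside the members, 9 of 10 in control cells (median 2.60, among them Prdm1 4.64 and Xbp1 3.0) and 6 in knockout cells (median 1.23), where Jchain fell. Follicular and general B cell genes fell, 9 of 12 in control cells (median -1.89) and 5 in knockout cells (median -0.77), led by Cr2 (-7.86 and -5.99). Among 14 T cell genes Thy1 (5.70 and 5.07) and Lck (0.91 and 2.20) rose in both genotypes, Zap70 rose in knockout cells and Cd8a fell in control cells (medians -0.15 and 0.09). Myeloid genes fell, 7 of 11 and 6 of 11 in the 2 genotypes. The part of changing cell types in the members' values was not tested, and fewer cells of a type and less RNA per cell cannot be told apart in such bulk RNA.

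Zbtb32 had the widest change of the 9 on the brightest probes. In resting control cells its level was -0.73, 0.19 and 0.09 in replicates 1, 2 and 3, and in stimulated control cells it was 4.61, 4.12 and 4.36. In knockout cells it was 0.60, 0.08 and 0.08 at rest and 4.63, 4.04 and 4.18 after stimulation. All 6 stimulated arrays stood far above all 6 resting ones, and the genotypes overlapped in both states. The rise was 22.9-fold in control cells (log2 change 4.52, SE 0.29, limma adjusted p = 6.39e-06) and 16.3-fold in knockout cells (4.03, SE 0.29, adjusted p = 3.05e-05). The 95% interval of the knockout effect ran from -0.72 to 0.56 in stimulated cells (adjusted p = 0.882) and from -0.23 to 1.05 at rest (adjusted p = 0.37).

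Zbtb20, the other BTB zinc finger factor, went the opposite way. Its level was 1.75, 1.70 and 1.89 in resting control cells and -0.54, -0.79 and -0.10 after stimulation, where replicate 2 was not well above background. In knockout cells it was 1.13, 1.28 and 1.16 at rest and 0.52, 0.52 and 0.08 after stimulation. None of the 4 groups overlapped: resting control was highest, followed by resting knockout, stimulated knockout and stimulated control. Zbtb20 fell 4.78-fold on stimulation in control cells (log2 change -2.26, SE 0.21, adjusted p = 3.71e-05) and 1.76-fold in knockout cells (-0.82, SE 0.21, adjusted p = 0.0256). The call in knockout cells was lost in 5 of the 12 fits that left out 1 array, namely each resting knockout array and stimulated knockout replicates 1 and 3 (-0.89 to -0.67). The knockout minus control difference was -0.59 at rest (adjusted p = 0.226) and 0.85 after stimulation (adjusted p = 0.0596), so neither passed the test. After stimulation it was 1.19 on slide 1 and 0.17 on slide 2. The difference of these differences, the interaction, was 1.44 (SE 0.30, unadjusted p = 0.0007, adjusted p = 0.104), and it did not pass the test either.

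Bhlhe40 and Bhlhe41 encode basic helix-loop-helix repressors that bind E-boxes and act redundantly in B-1a cells. Bhlhe40 stood at 1.00, 0.79 and 0.41 in resting and 1.69, 1.59 and 1.41 in stimulated control cells. In knockout cells it stood at 0.67, 0.46 and 0.60 at rest and 2.29, 2.04 and 1.61 after stimulation. Every stimulated array was above every resting one, while the genotypes overlapped in both states. The rise was 1.77-fold in control cells (log2 change 0.82, SE 0.23, adjusted p = 0.019) and 2.65-fold in knockout cells (1.40, SE 0.23, adjusted p = 0.00197). The call in control cells was lost without resting control replicate 3 (0.66), without stimulated control replicate 1 (0.76) and without both arrays of control replicate 1 (0.90). Between genotypes the difference was -0.16 at rest (adjusted p = 0.632), where the slides gave -0.33 and 0.19, and 0.42 after stimulation (adjusted p = 0.292). The interaction was 0.58 (SE 0.32, adjusted p = 0.578).

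Bhlhe41 was measured at -2.19, -1.23 and -0.38 in resting control cells, where replicate 1 was not well above background. Resting knockout cells gave -0.17, 0.17 and 0.09, all above the highest resting control array. Stimulated control cells gave 0.70, 0.26 and 0.92, with replicate 2 not well above background, and stimulated knockout cells gave 0.17, 0.29 and 0.74. The 3 resting control arrays were the low ones, and the other 3 groups overlapped their neighbours in level. Bhlhe41 rose 3.71-fold on stimulation in control cells (log2 change 1.89, SE 0.39, adjusted p = 0.00442), and the change in knockout cells was 0.37 (adjusted p = 0.641). The interaction was -1.52 (SE 0.56, unadjusted p = 0.0199, adjusted p = 0.341), so the responses were not shown to differ. A second, dimmer probe read higher after stimulation in both genotypes, by 3.02 in control and 1.68 in knockout cells. That probe was well above background on 1 of 3 resting control and 2 of 3 resting knockout arrays, so the sizes of these rises are uncertain. It passed the filter only through the stimulated groups. A test of its rise is not independent of that filter, so no p-value is given. At rest knockout minus control was 1.30 on the brighter probe (SE 0.39, adjusted p = 0.206), and slide 1 alone gave 1.71 against 0.46 on slide 2. After stimulation it was -0.23 (adjusted p = 0.747). The brighter probe passed the filter only through the knockout groups. The test at rest, where the knockout was higher, is therefore not independent of that filter.

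Arid3a encodes an AT-rich DNA binding factor, also called Bright, that raises immunoglobulin heavy chain transcription and is needed for B-1 cells. Its level was 2.01, 1.82 and 2.41 in resting control cells and 1.84, 2.26 and 2.53 in resting knockout cells. After stimulation it was 4.38, 3.95 and 4.46 in control and 3.03, 3.04 and 3.44 in knockout cells. The resting groups overlapped, and the stimulated knockout arrays lay between the resting and the stimulated control arrays without touching either. Stimulation raised Arid3a 4.55-fold in control cells (log2 change 2.19, SE 0.25, adjusted p = 0.000119) and 1.95-fold in knockout cells (0.96, SE 0.25, adjusted p = 0.0255). The call in knockout cells was lost without resting knockout replicate 1 (0.78) or 2 (0.99) and without each stimulated knockout array (0.83 to 1.03). Between genotypes the resting difference was 0.13 (95% interval -0.43 to 0.69, adjusted p = 0.726). The interaction was -1.22 (SE 0.36, unadjusted p = 0.00602, adjusted p = 0.223).

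Spn encodes the sialomucin CD43, a surface molecule of B-1, T and plasma cells. Its level in control cells was 1.44, 1.63 and 1.61 at rest and 4.24, 3.75 and 4.52 after stimulation. In knockout cells it was 2.17, 2.16 and 2.29 at rest and 3.51, 3.15 and 4.09 after stimulation. The resting knockout arrays were all above the resting control arrays, and the stimulated groups overlapped with the control mean on top. Spn rose 6.10-fold on stimulation in control cells (log2 change 2.61, SE 0.27, adjusted p = 5.34e-05) and 2.59-fold in knockout cells (1.37, SE 0.27, adjusted p = 0.00544). The knockout minus control difference was 0.65 at rest (adjusted p = 0.237) and -0.59 after stimulation (adjusted p = 0.223), and the interaction was -1.24 (SE 0.38, unadjusted p = 0.00751, adjusted p = 0.239).

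Cd5 encodes a scavenger receptor family protein that restrains antigen receptor signals and is carried by B-1a and T cells. Its level in control cells was -0.02, 0.02 and -0.29 at rest and -1.22, -0.66 and -0.72 after stimulation, where replicate 2 was not well above background. In knockout cells it was 0.30, 0.77 and 1.02 at rest and -0.02, -0.50 and 0.08 after stimulation. The knockout arrays lay above the control arrays in each state, and resting control and stimulated knockout cells overlapped. Cd5 fell 1.71-fold on stimulation in control cells (log2 change -0.77, SE 0.25, adjusted p = 0.0445) and 1.79-fold in knockout cells (-0.84, SE 0.25, adjusted p = 0.0474). Both calls sit close to the threshold of 0.05, and each was made in 10 of 25 other settings. In control cells it was kept without resting knockout replicate 1 or 3 or without stimulated control or knockout replicate 2, and lost without each of the other 8 arrays (-0.86 to -0.59 there) or without both arrays of control replicate 1 (-0.56). In knockout cells it was lost in 9 of the 12 fits that left out 1 array, the exceptions being stimulated control replicates 1 and 2 and resting knockout replicate 1 (-0.95 to -0.66 in the others). The call in knockout cells was also lost without both arrays of control replicate 1 (-0.84, limma adjusted p = 0.0559). The knockout minus control difference was 0.79 at rest (SE 0.25, adjusted p = 0.213) and 0.72 after stimulation (SE 0.25, adjusted p = 0.144), and the slides gave 0.53 and 1.30 at rest and 0.68 and 0.80 after stimulation. The interaction was -0.07 (adjusted p = 0.997).

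Ctla4 was the least even of the members. Its level was -1.48, -1.87 and -1.62 in resting control cells and 0.86, -1.14 and -1.56 in resting knockout cells. In stimulated cells it was -2.88, -1.63 and -1.03 in controls, where replicates 1 and 2 were not well above background, and -1.03, 0.84 and -0.90 in knockouts. A single knockout array in each state, replicate 1 at rest and replicate 2 after stimulation, stood apart above the rest. The knockout minus control difference was 1.04 at rest (SE 0.70, adjusted p = 0.35) and 1.49 after stimulation (SE 0.70, adjusted p = 0.24). On slide 2, which held neither of these arrays, the differences were 0.06 and 0.14. Neither stimulation comparison passed the test (control -0.19, adjusted p = 0.893, and knockout 0.25, adjusted p = 0.882), and in control cells the slides gave -0.58 and 0.58.

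Fcrl5 encodes a receptor of the Fc receptor-like family with both activating and inhibitory motifs in its tail. Its brighter probe read 3.85, 3.55 and 3.74 in resting control cells and 2.70, 2.69 and 3.41 in resting knockout cells. After stimulation it read 2.77, 2.27 and 3.47 in control and 2.53, 2.37 and 3.09 in knockout cells. The resting control arrays were above all others, and replicate 3 was the highest of the 3 in the other groups. The difference on stimulation was -0.88 in control cells (SE 0.33, adjusted p = 0.0744) and -0.27 in knockout cells (adjusted p = 0.693). It was -1.19 on slide 1 and -0.26 on slide 2 in control cells, and with the slide as a block it passed the test (adjusted p = 0.0155). Because same-numbered samples were treated as pairs here, which was not shown, the fit with the replicate number as a block is given too. There the difference passed as well (limma adjusted p = 0.0138). The knockout minus control difference was -0.78 at rest (SE 0.33, adjusted p = 0.24), where the slides gave -1.01 and -0.33, and -0.18 after stimulation (adjusted p = 0.767).

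The second Fcrl5 probe, which matches another RefSeq transcript of the gene, ran against the first. It was not well above background on any resting control array, with levels of -3.15, -4.35 and -4.78, and read -2.19, -2.23 and -1.91 in resting knockout cells, where only replicate 3 was well above background. Stimulated control cells gave -0.78, 0.46 and -1.48 and stimulated knockout cells -1.35, -0.74 and -1.33. On this probe resting control cells were lowest, where on the brighter probe they were highest. Its measured mean was -4.09 in resting and -0.60 in stimulated control cells, with a bound of 5.48-fold. This probe passed the filter only through the stimulated groups. A test of its rise is not independent of that filter, so no p-value is given for it. No fold is given between the resting groups, where the probe was well above background on 1 of 6 arrays. That difference did not pass the test (limma adjusted p over all kept probes 0.182). A bound here sets the brighter group's mean against a floor for each dim array. That floor is the lowest level of any probe well above background there, or the probe's own level if higher. It is not a measured background, so the bound is approximate. Fcrl5 therefore has no single direction on this array: the mean of both probes, which includes this dim probe, gave 1.31 on stimulation of control cells. The second probes of Spn and Arid3a went the same way as the first in all 4 comparisons, with changes on stimulation of 2.18 and 1.27 for Spn and of 2.13 and 1.15 for Arid3a in control and knockout cells.

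**Figure D2:**
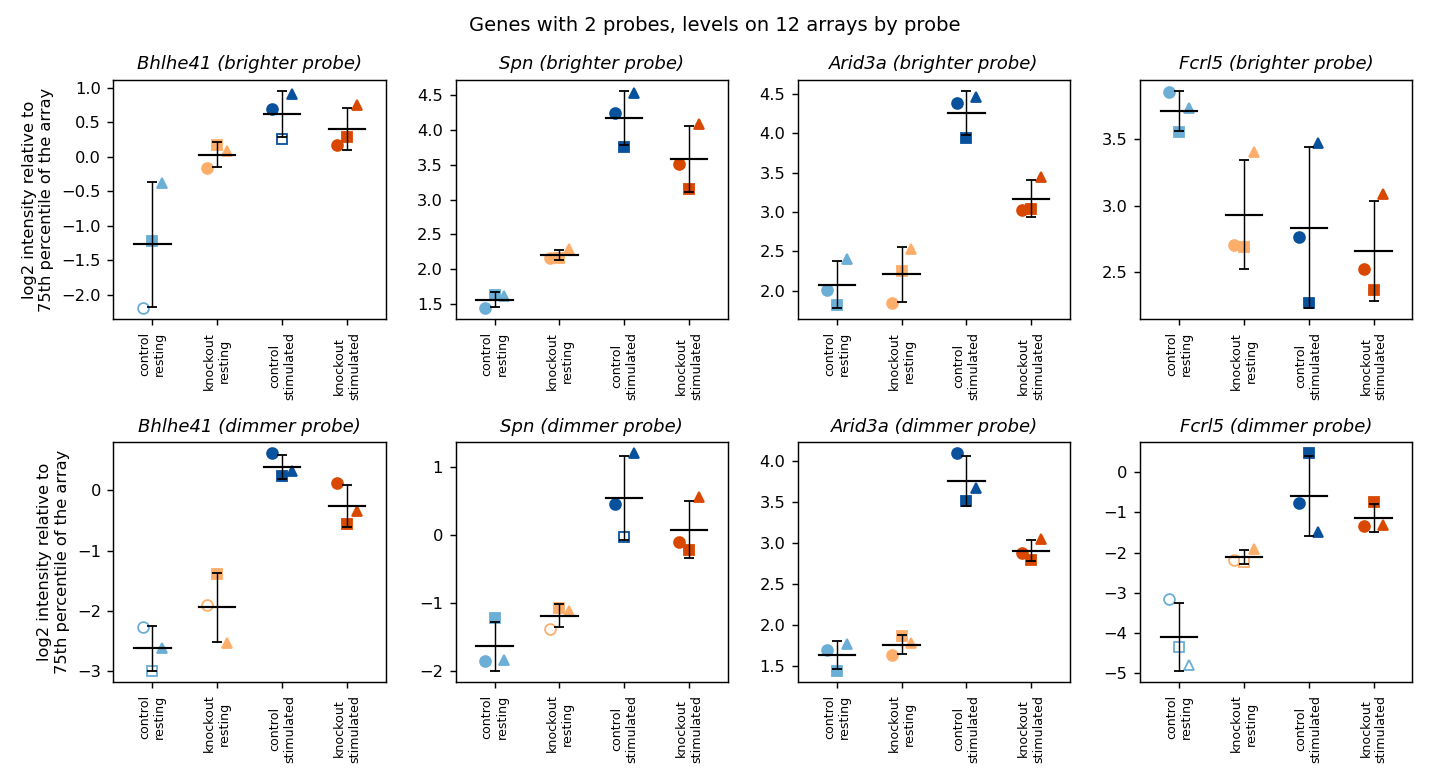
Levels on the brighter and the dimmer probe of the 4 genes with 2 probes (log2 intensity relative to the 75th percentile of the array), by group. Circles, squares and triangles are replicates 1, 2 and 3, open symbols are not well above background, lines are means and bars are SDs. The Fcrl5 probes run in opposite directions from resting to stimulated control cells, while those of Bhlhe41, Spn and Arid3a run the same way.

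**Figure D3:**
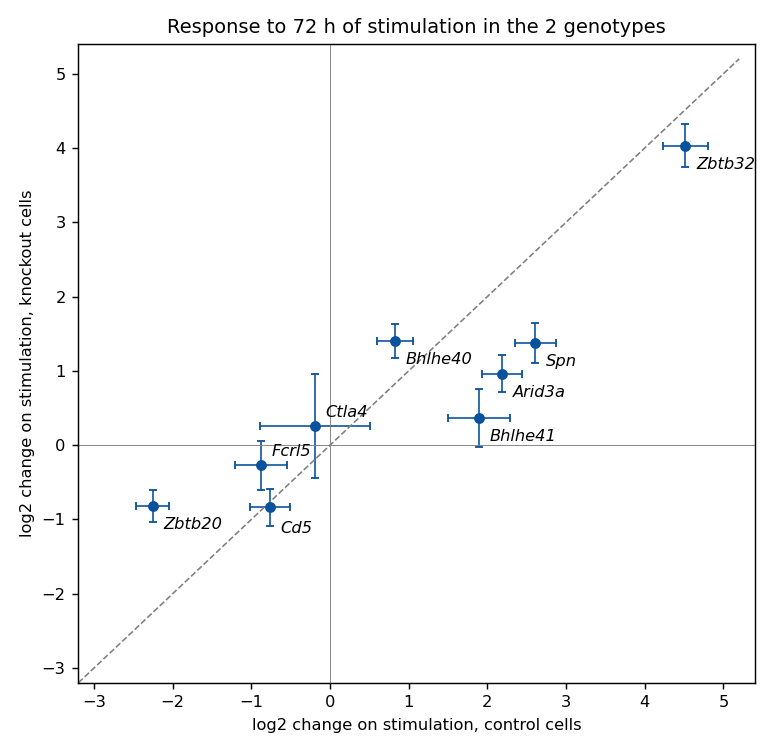
The log2 change on stimulation in knockout cells (vertical axis) against that in control cells (horizontal axis) for the 9 genes, with bars of 1 SE and a dashed line of equal change. Spn, Arid3a, Bhlhe41, Zbtb32 and, narrowly, Cd5 lie below the line and Zbtb20, Bhlhe40, Fcrl5 and Ctla4 above it, and no interaction passed the test.

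The second comparison asked what the Sub1 deletion changes in stimulated cells. Arid3a fell and was the only member past the threshold, at 2.13-fold below control cells (log2 change -1.09, SE 0.25, adjusted p = 0.0431). That is 1 of 9, where 3.46% of all features were called and 2.26% were called lower. The fall was -1.13 on slide 1 and -1.02 on slide 2, and the second Arid3a probe fell by 0.85 (adjusted p over all kept probes 0.0448). The groups did not overlap for 4 members, Cd5, Ctla4 and Zbtb20 being higher and Arid3a lower in the knockout, against 25% of all features. For Ctla4 the highest control and the lowest knockout array both read -1.03, and 2 of the 3 control arrays were not well above background. The median change of the 9 genes was -0.08 and that of all features -0.02. The Arid3a call was made in 10 of 26 other settings, with values from -1.65 to -0.69, among them the replicate block (limma adjusted p = 0.0162). It was lost without both arrays of control replicate 1 (-1.03), and in 10 of the 12 fits that left out 1 array (-1.23 to -0.99), the exceptions being stimulated control replicate 2 and resting knockout replicate 1.

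Several lists of other cell types moved in the same comparison. Of 10 plasma cell genes 9 fell and none rose, with a median change of -1.45, among them Mzb1 (-1.46), Irf4 (-1.44), Creld2 (-1.68) and Jchain (-2.45). Their summed level, in units of the array's 75th percentile, was 818 to 1227 on stimulated control arrays and 388 to 450 on stimulated knockout arrays. Of 14 T cell genes tested 3 rose (Zap70 2.11, Bcl11b 1.54 and Cd3g 2.24) and 1, Cd2, fell by 1.23, with a median of 0.91. The summed T cell level was 168 to 236 in stimulated control and 147 to 157 in stimulated knockout cells. Such a sum follows its brightest genes. Cd2 had the highest mean level of this list, 7.05 in stimulated control and 5.82 in stimulated knockout cells, while 12 of the 14 changes were positive. Cd3g and Cd3d were each well above background on 1 of 3 stimulated control arrays and on all 3 stimulated knockout arrays. Of 11 myeloid genes 5 rose (median 2.30), those with the smallest adjusted p being Mpeg1 (2.19), C1qb (2.37), C1qa (3.43) and C1qc (4.01), and of 6 NK cell genes 3 rose (Nkg7 1.57, Eomes 2.55 and Gzma 3.1, median 1.86). Their summed levels were 13.1 to 28.9 and 28.9 to 30 in stimulated control cells and 40.3 to 48.2 and 161 to 353 in stimulated knockout cells. Of the 11 myeloid genes 4, 3 and 8 were well above background on stimulated control replicates 1, 2 and 3. C1qa, Eomes and Bcl11b were so on 9, 7 and 8 of the 12 arrays. The sizes of rises from such dim levels are uncertain. Hba-a1 and Hba-a2 rose among 5 erythroid genes tested (median 0.30), with a summed level of 3.22 to 6.93 in stimulated control and at most 53.5 in stimulated knockout cells. Neither Foxp3 nor Ikzf2 passed the filter on dim probes, and none of the 3 other regulatory T cell genes was called. Cd5, Spn and Ctla4 are also T cell genes, and Arid3a is also expressed by erythroid precursors. The part of these cell types in the members' levels was not tested.

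At rest no member was called between the genotypes (limma), where 0.0131% of all features were. With no adjustment 5 of the 9 genes had p below 0.05, and so did 19.7% of all features. The groups did not overlap for 5 genes, Bhlhe41, Cd5 and Spn being higher and Zbtb20 and Fcrl5 lower in the knockout, against 36.7% of all features. The median of the 9 genes was 0.41, with 6 positive, and that of all features was -0.21. The resting median of all features moved with the scaling, from -0.81 with each array scaled to its median to 0.14 with the percentile taken over detected probes. In stimulated cells the same settings gave -0.58 and 0.39. Such a scaling shifts all members alike, so the resting values have no fixed size: over 26 other settings Spn ran from 0.041 to 0.999, over 25 Cd5 ran from 0.19 to 1.14, and Arid3a, Bhlhe40 and Zbtb32 changed sign with the scaling. In the same comparison no gene of the other cell type lists was called, with medians of 0.51 for T cell, 1.50 for myeloid, 0.55 for NK cell and 1.91 for erythroid genes. The summed T cell level was 106 to 120 in resting control and 92.8 to 106 in resting knockout cells. Cd2 was again the brightest gene of that sum (6.55 and 6.26), while 11 of the 14 changes were positive. The summed myeloid level was 59 to 90.4 in resting control and 114 to 164 in resting knockout cells. The part of these cell types in the members' values was not tested.

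**Figure D4:**
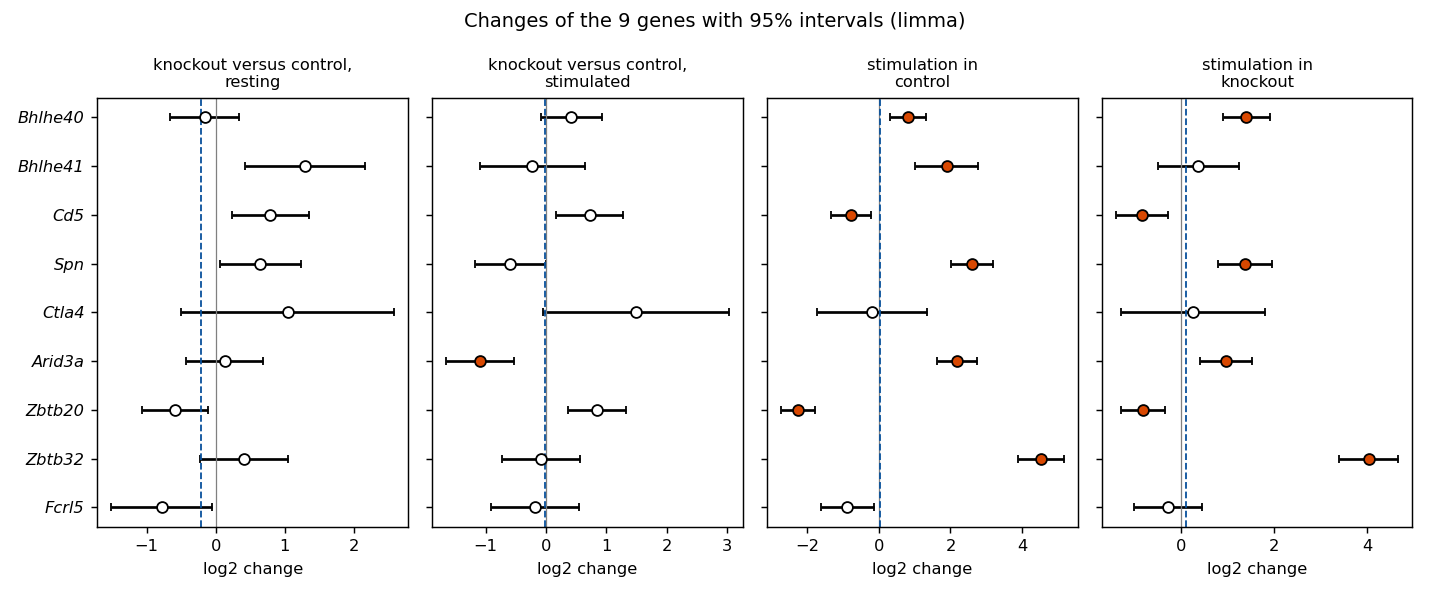
Log2 changes of the 9 genes in the 4 comparisons with 95% intervals (horizontal axis). Filled points have a limma adjusted p below 0.05 over all features, and the dashed line is the median of all features. Arid3a is the one filled point of the stimulated genotype comparison, the resting comparison has none, and stimulation has 7 in control and 6 in knockout cells.

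The interaction asked whether stimulation acts differently in the 2 genotypes. No member passed (limma), against 0.144% of all features. Unadjusted p was below 0.05 for 4 members (Zbtb20, Arid3a, Spn and Bhlhe41) and for 10.6% of all features. Bhlhe40, Fcrl5, Zbtb32, Ctla4 and Cd5 had adjusted p of 0.578 or more.

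Other genes of B-1 cells did not go one way. Of 11 tested, 4 rose and 5 fell on stimulation in control cells (median -0.70), and 4 rose and 2 fell in knockout cells (median -0.03). Mzb1, a chaperone of immunoglobulin assembly, rose by 2.37 in control cells, while Pdcd1lg2, the PD-1 ligand PD-L2, fell by 2.01, the scaffold gene Ahnak by 2.16 and Nfkbid, a nuclear IκB protein, by 2.20. In stimulated cells Mzb1 was the 1 gene of this list called between the genotypes (-1.46, adjusted p = 0.0082). Mzb1 is also on the plasma cell list, where the same fall was counted. None of these B-1 genes was called at rest (median -0.48).

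Memory B cell genes mostly went down with stimulation. Of 9 tested, 6 fell in control cells (median -0.79) and 5 in knockout cells (median -0.80), and none rose. Hhex, a homeobox factor of memory B cell formation, fell by 2.28 and 1.95 in the 2 genotypes, the chemokine receptor gene Ccr6 by 1.78 and 1.62, and Cd38, an ectoenzyme, by 1.35 and 0.83. None was called between genotypes, and all 9 differences at rest were negative (median -0.59). The same held at rest for the 12 follicular and general B cell genes (median -0.58, none called). The resting median of all features was itself -0.21, and it ran from -0.81 to 0.14 with the scaling. Such a scaling shifts all genes alike, so these counts of negative signs depend on it.

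The relatives and binding partners of the members gave 13 tested genes, of which 7 fell and none rose in stimulated control cells (median -1.11), and 5 fell in knockout cells (median -0.64). Fcrl1 fell by 3.11 and 2.89, the Fc receptor-like gene Fcrla by 1.98 and 1.26, and Cd72, which encodes an inhibitory receptor of B cells, by 3.09 and 1.47. The helix-loop-helix inhibitor Id2 was higher by 2.39 in stimulated knockout than in control cells (adjusted p = 0.00206), the one gene of this list called between genotypes. Id2 is also expressed by NK and myeloid cells, whose lists rose in the same comparison.

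For the 5 members well above background on all 12 arrays, the 2 genes with the most similar profile were found among 7052 named genes, as the smallest root mean square difference of 12 centred log2 levels. Arid3a was nearest to Ebp (0.16) and Tmed10 (0.18), and Spn to Selplg (0.23) and Hepacam2 (0.26). Bhlhe40 was nearest to Gnpda1 (0.17) and Wdr26 (0.20), Fcrl5 to Mlycd and Zfp316 (0.18 each), and Zbtb32, at a wider distance, to St7 (0.36) and Ube2c (0.38). The distances describe these arrays, and a gene with a small range lies closer to others than one with a wide range.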

How the data were processed

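RNA of 12 samples was amplified, labelled with Cy3 and hybridised to one-colour Agilent mouse arrays, per the labels' protocols. The values are background-subtracted processed signal intensities on a linear scale, made by the authors with Feature Extraction 10.7.3.1 per the file headers, while the submitters' processing notes name version 9.1. Apart from rounding, the deposited series matrix repeats these intensities (they differ by at most 0.497%), so the arrays had not been normalized to each other.

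Outlier spots were dropped, the 75th percentile of the 59305 non-control spots was subtracted from each log2 intensity, and repeated spots were averaged per probe. A probe entered the test if some group had it well above background on its 3 arrays. Names came through RefSeq accessions (GRCm38.p6, 26413 of 55681 probes), and the brightest probe stood for a gene. The number of arrays, 3 a group, limits the precision.

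Changes were tested two-sided with limma 3.58.1 in R 4.3.3, using lmFit and eBayes, 12 arrays and 4 group means, and Benjamini-Hochberg adjustment over 22981 features at 0.05. Files were read by the R package data.table in version 1.17.8. Adjusted p-values in the text come from limma throughout. A knockout effect is knockout minus control, and stimulation is stimulated minus resting. The fit was tested on simulated data. Deviations of same-numbered arrays correlated in every pair of the stimulated genotype comparison (0.329 to 0.482) and of stimulation in control cells (0.419 to 0.507), so replicate numbers were taken to pair those samples. They did not in every pair of the other comparisons.

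The members and the gene lists were chosen with earlier results of these data known. Named are all 9 members, up to 4 called genes per list and comparison with the smallest adjusted p, Sub1 and Cd79a, and the 2 nearest profiles. The sex-linked genes and the list genes given for being undetected were named after their values were seen. Alternatives were blocks, scalings, filters, probe rules, fit settings and the removal of single arrays, and, added after seeing the data, of both arrays of control replicate 1.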

Additional observations from a re-analysis of the deposited data

Results flagged for a closer look

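Zbtb20 was singled out because its genotype difference had opposite signs in the 2 states with no overlap between groups: all 3 resting knockout arrays were below all 3 resting control arrays (-0.59, SE 0.21), and all 3 stimulated knockout arrays were above all 3 stimulated control arrays (0.85, SE 0.21). The stimulated minus resting difference was 1.44 (log2, SE 0.30), with limma's adjusted p at 0.104 over all features, so it did not pass the test. It was 1.71 on slide 1 and 0.90 on slide 2, and over 25 other settings it ranged from 0.90 to 1.63 and was called in 3. No group held 4 or more samples, so no sample was checked as an outlier of its group.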

How the results depend on the processing

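Over the 26 other settings with a test, Zbtb32 and Spn kept their calls in both stimulation comparisons, as did Arid3a, Bhlhe41 and Zbtb20 in control cells and Bhlhe40 in knockout cells, wherever the setting gave a value. A filter on all 12 arrays gave no value for Bhlhe41, Cd5, Ctla4 and Zbtb20. Over all settings 1088 values were counted as kept, 70 lost and 19 gained a call, 38 changed sign and 25 within-slide values moved by over 1 SD. A within-slide value has no test and was counted as kept if within 1 SD of the main value. For an uncalled member this held whatever the sign, so some sign changes within a slide are not among the 38. None of the 38 had been called. Fcrl5 as the mean of its probes on stimulation of control cells, 1 of them, passed the test with the new sign (limma adjusted p = 0.00359). That mean includes the dim probe that passed the filter only through the stimulated groups, so this test is not independent of the filter. The cause of these shifts was not tested beyond what each setting does.

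In stimulated cells the genotype count of 1 became 3 with the percentile over detected probes (Bhlhe40 0.83, Cd5 1.13 and Zbtb20 1.25, not Arid3a), 2 with array weights and with trend and robust settings (Zbtb20 added), and 0 with no filter, normexp, only the 2 groups, quantile normalization or without both arrays of control replicate 1. Leaving out 1 array gave 0 to 1, and without stimulated control replicate 3 the gene called was Zbtb20 (1.04), not Arid3a. At rest array weights gave 1 (Bhlhe41 1.51, limma adjusted p = 0.0498) against 0. Its probe passed the filter only through the knockout groups, so that call is not independent of the filter. For stimulation of knockout cells median scaling, no filter and only the 2 groups gave 3 against 6, and leaving out 1 array 3 to 6. In control cells leaving out 1 array gave 5 to 7 against 7. The interaction gave 1, Zbtb20, with the percentile over detected probes, array weights or trend and robust settings.

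Signs turned as follows in the settings with a test. At rest Arid3a was -0.47 and Zbtb32 -0.20 with median scaling, and Bhlhe40 was 0.19 with the percentile over detected probes and 0.052 with quantile normalization. In stimulated cells Bhlhe40 was -0.14 with median scaling, and with the percentile over detected probes Bhlhe41 was 0.18, Fcrl5 0.23 and Zbtb32 0.32. Quantile normalization gave Fcrl5 0.15 and Zbtb32 0.32, normexp gave Zbtb32 0.055, and leaving out both arrays of control replicate 1 gave Zbtb32 0.039. For stimulation Ctla4 was 0.15 with normexp and 0.41 without those 2 arrays in control cells, and -0.081 with the percentile over detected probes and -0.049 with array weights in knockout cells. The mean of both Fcrl5 probes gave 0.60 at rest, 1.31 and 0.35 for stimulation of control and knockout cells, and -0.96 for the interaction. The interaction of Cd5 was 0.13 with array weights and that of Ctla4 -0.16 without both arrays of control replicate 1. Leaving out 1 array gave ranges that cross 0 for Arid3a at rest (-0.030 to 0.32), for Fcrl5 (-0.46 to 0.14) and Zbtb32 (-0.26 to 0.039) between stimulated genotypes, for Ctla4 on stimulation of control (-0.60 to 0.32) and knockout cells (-0.35 to 0.99), and for the interactions of Cd5 (-0.27 to 0.11, and -0.28 without both arrays of control replicate 1) and Ctla4 (-0.15 to 1.18).

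With the replicate number as a block the counts of called members were 0, 1, 8, 6 and 0 for the resting and stimulated genotype comparisons, stimulation of control and of knockout cells and the interaction. The block changed no other member's call than that of Fcrl5 on stimulation of control cells (adjusted p = 0.0138). Over all features it called 8.12% in place of 3.46% between stimulated genotypes, and 0.178% in place of 0.0131% at rest, where the pairing correlations ran from -0.117 to 0.393. In stimulated knockout against resting knockout cells they ran from 0.00316 to 0.391. Dim signal limits Ctla4, Bhlhe41, Cd5, Zbtb20 and the second Fcrl5 probe.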
